A study of Mus musculus with 10 samples.

Results

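LCDM and 2iL-F are serum-free media for mouse embryonic stem cells, and they were compared here by RNA-seq in 4 of the 10 libraries of the series: LCDM replicates 3 and 5 against 2iL-F replicates 3 and 5. The cells were an embryonic stem cell line whose strain is given as C57BL6X129S6F1, the cross of a C57BL6 and a 129S6 mouse, and both media held N2B27, mLIF at 1000 IU and Chir99021 at 3 µM. LCDM was this base with Dim and Mih, each at 2 µM, and its cells are labelled as grown with feeder. 2iL-F was this base with PD0325901 at 1 µM, and its cells are labelled as grown without feeder. The other 6 libraries were 2 of 2iL, the medium of 2iL-F labelled with feeder, 2 of A2iL, the same base with CGP77675 at 1.5 µM and feeder, and 2 of SL, KO-DMEM with 15% FBS, 1000 IU mLIF and feeder. They entered the fit and are given beside the comparison where they help to read it. LCDM and 2iL-F thus differ in PD0325901, in Dim and Mih, and in the feeder label, and the effects of these cannot be told apart here.

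LIF is a cytokine that keeps mouse embryonic stem cells undifferentiated through STAT3, and Chir99021 inhibits GSK3, which spares beta-catenin and relieves repression by Tcf7l1. PD0325901 inhibits MEK, the kinase that activates ERK, and blocking ERK is known to quiet lineage priming, to lower the de novo DNA methyltransferases and to favour the naive network of transcription factors. The labels write only Dim and Mih. In the published medium that carries the name LCDM, these letters stand for dimethindene maleate, a histamine receptor blocker, and minocycline hydrochloride, an antibiotic that also inhibits PARP1. Feeder cells are mouse fibroblasts that lend the stem cells matrix and cytokines, and their RNA enters a bulk library where they are not removed.

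The values are TPM, a length-scaled share of a library, and they keep no read number, so the depth of a library is unknown. Listed values summed to 71.0% to 73.0% of the unit's total per library, and the 2 replicates of each condition correlated over genes at 0.9925 to 0.9939 on the log2 scale. Differences are LCDM minus 2iL-F on log2(TPM + 1) ± SE from limma, with Benjamini-Hochberg adjusted p-values over 14578 genes and a threshold of 0.05. This scale understates the change of genes with low TPM. No label says that replicates were separate cultures, so each p-value reflects how far these particular libraries scatter, and that scatter may be technical only. Symbols can be trusted for 7962 of the tested genes, the upper lines of the table, because the values stand beside the wrong symbols further down, and only these are named. Core pluripotency genes were present in both conditions, with 1287 and 1314 TPM of Pou5f1 in LCDM and 1173 and 1146 TPM in 2iL-F, so the labelled cell type was matched by its markers.

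The feeder labels went against the fibroblast transcripts in these libraries. The list of 37 collagen and matrix genes of fibroblasts summed to 1274 and 1297 TPM in LCDM and to 5814 and 5569 TPM in 2iL-F, the condition labelled without feeder. In the libraries labelled 2iL, with feeder, it summed to 1173 and 1212 TPM, 6 of the 37 genes were listed at 0 in both libraries and 13 reached 1 TPM in both, against 35 in LCDM and 37 in 2iL-F. Most of the 2iL sum came from Sparc and Fn1, matrix genes with 436 and 446 TPM and 386 and 420.1 TPM in 2iL, and both are also made by cells other than fibroblasts. The A2iL and SL libraries, labelled with feeder, summed to 3741 to 3841 TPM and 4414 to 4635 TPM. Col1a1, the main chain of type I collagen, had 108 and 105 TPM in LCDM, 1058 and 974 TPM in 2iL-F and 0.200 and 0.264 TPM in 2iL. By Col1a1, fibroblast transcript was low in LCDM, high in the libraries labelled 2iL-F and almost absent from those labelled 2iL. Whether the labels or columns of 2iL-F and 2iL were exchanged was not tested, and both names stand here for the libraries so labelled. The 2iL values are printed beside many genes below as a second set of libraries in the PD0325901 medium. In bulk RNA, fewer fibroblasts and less fibroblast RNA per cell cannot be told apart.

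LCDM and 2iL-F differed over most of the transcriptome. Of 14578 genes, 8674 (59.5%) passed the test, 4706 (32.3%) higher and 3968 (27.2%) lower in LCDM, and 1577 (10.8%) differed by at least 1 on the log2 scale, 590 (4.05%) higher and 987 (6.77%) lower. Under median-of-ratios scaling, which moved the median difference of all genes to -0.01, against 0.05 here, 4000 genes were higher and 4666 lower. Differences near the median therefore have no sure sign. Among the 7962 nameable genes, 63.0% passed, 35.4% higher and 27.5% lower, with 3.62% higher and 6.43% lower by at least 1, and the median difference was 0.06. These shares are the background for the gene groups. Many genes stand apart by more than the spread of their replicates, so a count of passing members says little unless it exceeds them.

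**Figure D1:**
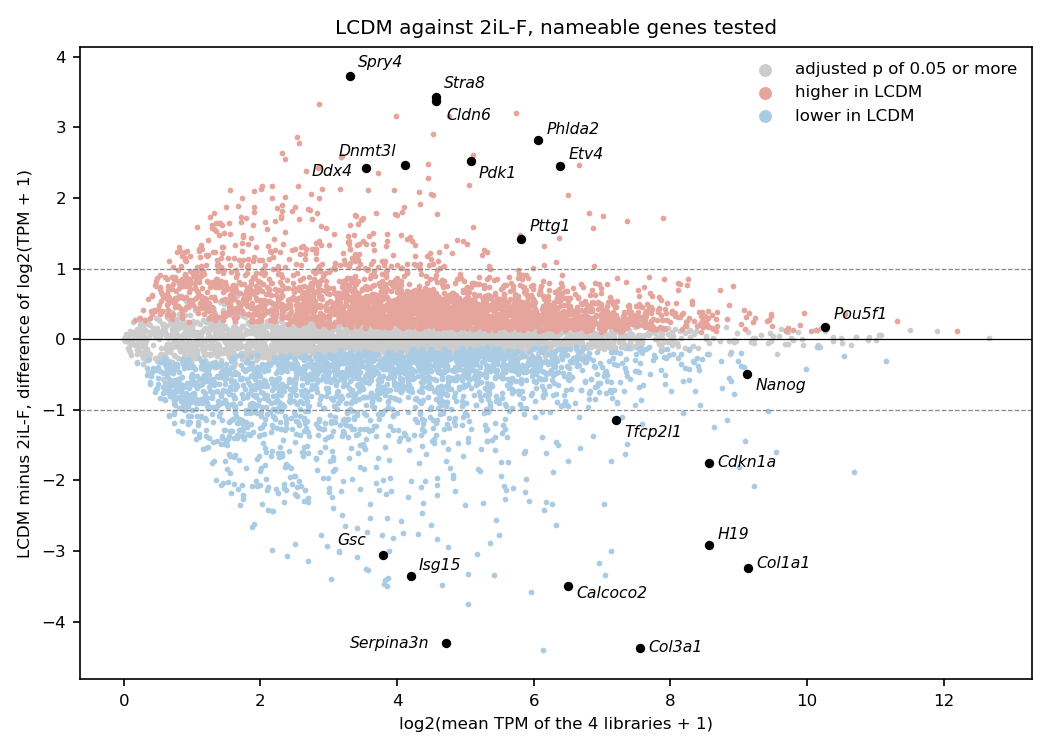
Difference between LCDM and 2iL-F (y axis, log2(TPM + 1), LCDM minus 2iL-F) against mean level (x axis, log2(mean TPM of the 4 libraries + 1)) for the 7962 nameable genes tested, with 20 genes named; dashed lines mark a difference of 1 on the log2 scale. Spry4 at 3.73 and Stra8 at 3.44 lie highest among the named points, and Col3a1 at -4.37 lies lowest.

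ERK pathway feedback genes were higher in LCDM, the medium without the MEK inhibitor. Of 20 tested genes of ERK feedback and ETS targets, 13 were higher, 8 of them by at least 1, and 4 were lower, 1 of them by at least 1, with a median difference of 0.57. Spry4, an inhibitor of receptor tyrosine kinase signalling that ERK induces, had 17.8 and 16.9 TPM in LCDM and 0.429 and 0.343 TPM in 2iL-F, the largest increase among the named genes (3.73 ± 0.0754, adjusted p = 8.28e-09). Its libraries were also low in 2iL, at 0.229 and 0.287 TPM, and high in A2iL and SL, at 31.4 and 32.5 TPM and 25.6 and 28.4 TPM. Every library of the PD0325901 medium was below 1 TPM for Spry4, and no library of another medium was. The ETS factor Etv4 had 139 and 141 TPM in LCDM and 26.6 and 22.9 TPM in 2iL-F (2.46 ± 0.0644, adjusted p = 2.63e-08), and Dusp6, the phosphatase that removes the activating phosphates of ERK, had 35.2 and 35.1 TPM in LCDM and 6.59 and 6.22 TPM in 2iL-F (2.29 ± 0.0591, adjusted p = 2.48e-08).

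Other feedback genes of the ERK group followed with smaller differences. Dusp9, another ERK phosphatase, had 143 and 148 TPM in LCDM, 33.98 and 34.9 TPM in 2iL-F and 67.2 and 57.9 TPM in 2iL (2.04 ± 0.0664). Spry2 (1.31 ± 0.0816), the Ras pathway inhibitor Spred1 (1.39 ± 0.0757), and the phosphatases Dusp4 (1.39 ± 0.0654) and Dusp5 (1.11 ± 0.0665) were each higher by at least 1. Etv5, a close relative of Etv4, differed little, with 228 and 224 TPM in LCDM and 202 and 199 TPM in 2iL-F (0.17 ± 0.0467, adjusted p = 0.0116), a call lost under median-of-ratios scaling and without LCDM replicate 3 or 2iL-F replicate 5. The exceptions were Ier3, a stress and growth factor response gene, at 16.2 and 14.7 TPM in LCDM and 78.5 and 77.5 TPM in 2iL-F (-2.26 ± 0.0565), and smaller decreases of Sh3bp4 (-0.38 ± 0.0690), of the phosphatase Dusp1 (-0.29 ± 0.0653) and of the cytokine Lif (-0.25 ± 0.0925), the last lost without 2iL-F replicate 5 or either LCDM library. Ier3 was low in 2iL too, at 9.30 and 8.67 TPM, and over the 10 libraries it correlated with the mean of the fibroblast matrix genes at r = 0.93, points that share their fibroblast content.

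The cascade above ERK changed little. Of 17 tested genes of FGF receptors, Ras, Raf and MEK, 5 were higher and 3 lower, shares below those of the background. The MEK genes Map2k1 (99.02 ± 0.460 TPM in LCDM and 101 ± 4.04 TPM in 2iL-F, mean ± SD of 2 libraries) and Map2k2 (53.5 ± 1.86 TPM in LCDM and 55.8 ± 3.91 TPM in 2iL-F) did not pass the test, with adjusted p-values of 0.724 and 0.589. Fgfr1, the main FGF receptor of these cells, was lower in LCDM (-0.47 ± 0.0504), and Fgfr4 was the largest increase, from low levels in all libraries, with 2.39 and 3.31 TPM in LCDM and 0.530 and 0.247 TPM in 2iL-F (1.47 ± 0.154).

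Immediate early genes, which growth factors and stress switch on within minutes, had no common direction. Of 20 tested, 8 were higher and 8 lower, with a median difference of -0.03. Fos, a subunit of the AP-1 factor, had 256 and 251 TPM in LCDM, 159 and 162 TPM in 2iL-F and 3.32 and 3.47 TPM in 2iL (0.66 ± 0.0396, adjusted p = 2.65e-06). The 2 conditions with PD0325901 thus stood far apart for Fos, much further than LCDM and 2iL-F. Egr3, a zinc finger factor, was near 0 in 2iL-F and had 1.37 and 1.46 TPM in LCDM (1.23 ± 0.0933). The largest decreases beside Ier3 were Fosl2, an AP-1 subunit, at 5.07 and 5.50 TPM in LCDM, 30.3 and 26.8 TPM in 2iL-F and 0.299 and 0.374 TPM in 2iL (-2.23 ± 0.0755), and Klf6 (-1.19 ± 0.0538). Fosl2 followed the fibroblast matrix genes over the 10 libraries at r = 0.99.

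**Figure D2:**
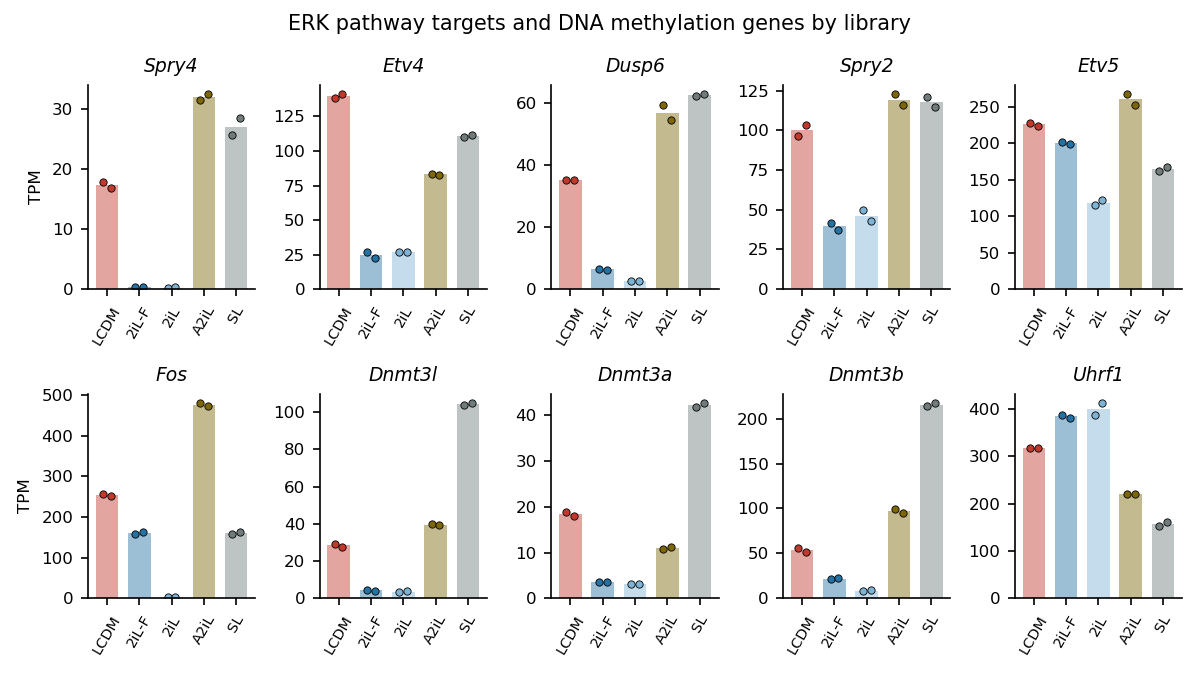
TPM (y axis) of 5 ERK pathway targets and Fos, and of 4 DNA methylation genes, in each library (points) with the mean of 2 (bars), for LCDM, 2iL-F, 2iL, A2iL and SL. Spry4, Etv4, Dusp6 and the 3 Dnmt3 genes are lower in both conditions with PD0325901 than in LCDM, while Fos had 159 and 162 TPM in 2iL-F and 3.32 and 3.47 TPM in 2iL.

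All 3 genes of the de novo DNA methylation complex were higher in LCDM. DNA methyltransferases 3a and 3b place new methyl groups on CG sites, Dnmt3l assists them, and Dnmt1 with Uhrf1 copies methylation after replication. Dnmt3l had 29.3 and 27.5 TPM in LCDM and 4.49 and 4.12 TPM in 2iL-F (2.47 ± 0.0676, adjusted p = 3.21e-08), Dnmt3a 18.8 and 17.97 TPM in LCDM and 3.45 and 3.52 TPM in 2iL-F (2.11 ± 0.0572, adjusted p = 3.03e-08), and Dnmt3b 55.4 and 51.9 TPM in LCDM and 20.99 and 22.4 TPM in 2iL-F (1.27 ± 0.0679, adjusted p = 1.32e-06). In SL libraries they were higher still, with 104 and 105, 41.9 and 42.7 and 214 and 217 TPM. For each of the 3 genes, none of the LCDM libraries reached the SL level.

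The maintenance arm differed by less. Dnmt1 had 135 and 134 TPM in LCDM and 120.1 and 118 TPM in 2iL-F (0.18 ± 0.0479, adjusted p = 0.0126), a call lost under median-of-ratios scaling and without 3 of the 4 libraries in turn, and Uhrf1 had 318 and 318 TPM in LCDM and 388 and 382 TPM in 2iL-F (-0.27 ± 0.0441, adjusted p = 7.91e-04). Zfp57, which protects the methylation of imprinted regions, was higher in LCDM (0.54 ± 0.0477), and Tet3, an oxidase of methylcytosine, was lower (-0.56 ± 0.0859), both by less than 1. Of 17 tested genes of DNA methylation and demethylation, 8 were higher and 3 lower. Leaving out LCDM replicate 3 reduced the 8 to 4 and leaving out 2iL-F replicate 3 reduced them to 5.

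Germline genes whose promoters are methylated in somatic cells were higher in LCDM, together with the methyltransferases. Of 20 tested, 16 were higher, 8 of them by at least 1, and 1 was lower, with a median difference of 0.77. Stra8, the retinoic acid responsive gene of meiotic entry (chr6:34920163-34939344, plus strand, mm10), had 43.9 and 40.8 TPM in LCDM, 2.78 and 3.25 TPM in 2iL-F and 5.11 and 5.21 TPM in 2iL (3.44 ± 0.0801, adjusted p = 1.56e-08). The RNA helicase Ddx4 (chr13:112598333-112652475, minus strand) had 19 and 18.4 TPM in LCDM and 2.40 and 2.96 TPM in 2iL-F (2.43 ± 0.0966), and the piRNA pathway gene Piwil2 had 11.8 and 10.3 TPM in LCDM and 1.17 and 1.35 TPM in 2iL-F (2.42 ± 0.135). For these 3 genes the LCDM libraries were the highest of all 10, SL included. The germline factor Dmrt1, among the 20 largest increases, had 89.1 and 101 TPM in LCDM, 9.61 and 9.32 TPM in 2iL-F and 53.6 and 51.4 TPM in SL (3.20 ± 0.0785). In 2iL it had 35.6 and 31.8 TPM, and its 2iL-F libraries were the lowest of all 10.

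Among meiotic chromosome genes, Sycp3 of the synaptonemal complex had 25 and 25.1 TPM in LCDM and 6.36 and 6.63 TPM in 2iL-F (1.80 ± 0.141), and the cohesin subunit Smc1b 6.39 and 6.80 TPM in LCDM and 1.10 and 1.45 TPM in 2iL-F (1.74 ± 0.109). The recombinase Dmc1 (1.39 ± 0.0966), the piRNA helicase Mov10l1 (1.90 ± 0.111) and the testis form of a TFIID subunit, Taf7l (1.64 ± 0.197), were also higher by at least 1. Dazl, an RNA-binding gene of early germ cells (chr17:50279395-50293636, minus strand), did not pass the test: its libraries overlapped, with 10.01 and 9.51 TPM in LCDM and 8.96 and 10.2 TPM in 2iL-F (0.02 ± 0.153, adjusted p = 0.907). Dazl was low in A2iL and SL, at 1.74 and 1.21 TPM and 1.27 and 1.01 TPM. The one member lower in LCDM was Rhox6, a homeobox gene, with 2.21 and 2.27 TPM in LCDM, 6.90 and 6.74 TPM in 2iL-F and 44.9 and 44.7 TPM in 2iL (-1.27 ± 0.0683).

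The promoters of 3 of these genes are shown to compare their CG content, since Stra8 and Ddx4 were higher in LCDM and Dazl did not pass the test. Each runs from 250 bases before to 50 bases after the RefSeq start (GRCm38.p6), with CG sites in capitals.
Stra8, chr6:34920698-34920997, plus strand: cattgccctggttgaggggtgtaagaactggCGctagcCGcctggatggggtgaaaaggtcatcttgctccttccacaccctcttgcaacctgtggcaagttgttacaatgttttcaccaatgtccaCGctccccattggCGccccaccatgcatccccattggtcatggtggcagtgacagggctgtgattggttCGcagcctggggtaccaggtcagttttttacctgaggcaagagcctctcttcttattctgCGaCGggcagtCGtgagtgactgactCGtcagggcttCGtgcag
Ddx4, chr13:112652261-112652560, minus strand: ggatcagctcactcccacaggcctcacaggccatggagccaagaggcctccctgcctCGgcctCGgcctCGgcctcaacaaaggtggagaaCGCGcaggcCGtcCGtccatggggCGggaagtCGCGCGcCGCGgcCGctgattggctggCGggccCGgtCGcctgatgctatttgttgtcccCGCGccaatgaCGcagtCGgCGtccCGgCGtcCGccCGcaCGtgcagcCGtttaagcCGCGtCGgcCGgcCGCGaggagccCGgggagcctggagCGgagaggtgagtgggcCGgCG
Dazl, chr17:50293571-50293870, minus strand: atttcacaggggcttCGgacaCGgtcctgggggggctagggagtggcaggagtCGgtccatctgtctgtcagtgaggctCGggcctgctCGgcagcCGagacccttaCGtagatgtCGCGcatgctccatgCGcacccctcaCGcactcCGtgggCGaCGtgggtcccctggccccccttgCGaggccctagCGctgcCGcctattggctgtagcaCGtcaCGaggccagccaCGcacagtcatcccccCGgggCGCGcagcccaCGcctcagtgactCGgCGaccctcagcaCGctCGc
The window holds 10 CG sites for Stra8, 38 for Ddx4 and 28 for Dazl, against a median of 7 (quartiles 3 and 20) over 32851 windows of all genes. The 17 germline members with a window had a median of 20 (quartiles 17 and 28). For these members the window with the most CG sites was taken per gene, whereas the median of 7 is over single windows. These medians are thus not of the same measure. The CG count did not order these 3 genes by their difference, since Dazl lies between Stra8 and Ddx4. Methylation itself was not measured.

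**Figure D3:**
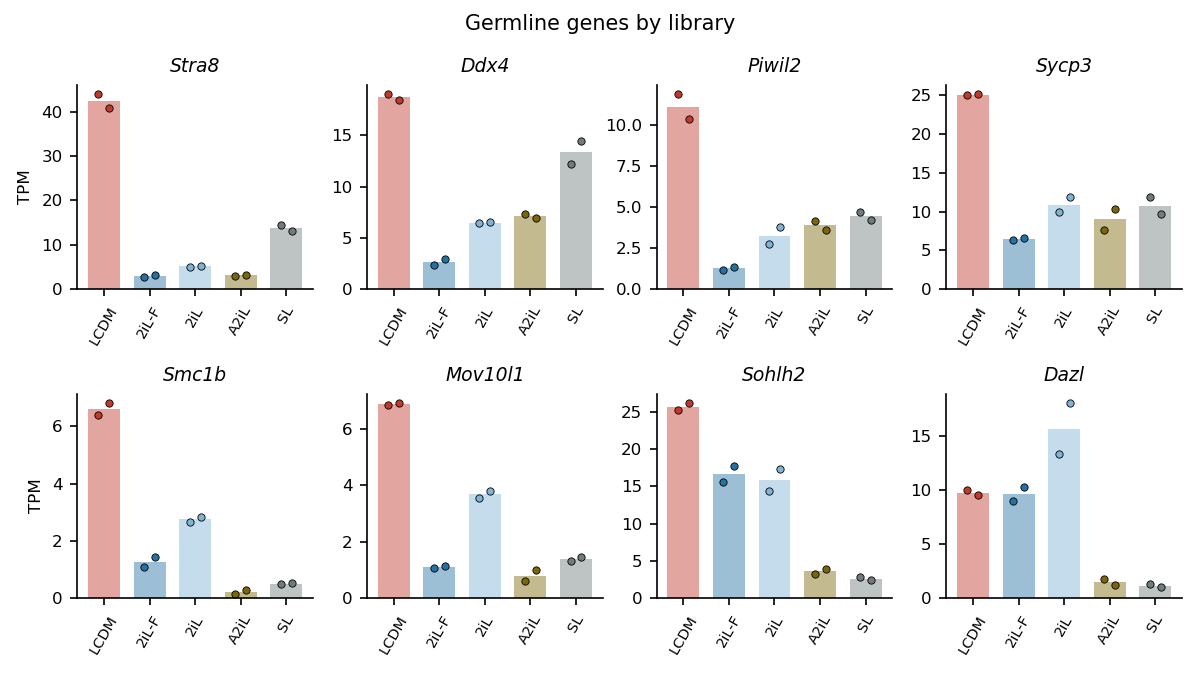
TPM (y axis) of 8 germline genes in each library (points) with the mean of 2 (bars), for LCDM, 2iL-F, 2iL, A2iL and SL. Stra8, Ddx4, Piwil2 and Sycp3 are highest in LCDM, while Dazl had 10.01 and 9.51 TPM in LCDM and 8.96 and 10.2 TPM in 2iL-F.

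The core pluripotency genes were close to level. Of 11 tested, 6 were higher and 2 lower, none by 1 or more. The 6 became 2 under median-of-ratios scaling, and also without LCDM replicate 5 or without 2iL-F replicate 5, so no direction is given for the group. Pou5f1, the factor OCT4 (chr17:35506018-35510772, plus strand), differed by 0.17 ± 0.0430 (adjusted p = 0.0100), which did not pass under median-of-ratios scaling or without LCDM replicate 5 or 2iL-F replicate 5, and Esrrb had 266 and 265 TPM in LCDM and 259 and 256 TPM in 2iL-F (0.05 ± 0.0512, adjusted p = 0.472). Nanog (chr6:122707489-122714633, plus strand) was lower, with 473 and 450.1 TPM in LCDM and 652 and 643 TPM in 2iL-F (-0.49 ± 0.0762, adjusted p = 6.71e-04), and so was the growth factor Gdf3 (-0.91 ± 0.0495). The Nodal co-receptor Tdgf1 was higher, with 622 and 587 TPM in LCDM and 353 and 364 TPM in 2iL-F (0.75 ± 0.0656).

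Within the naive network, members split. Of 15 tested, 5 were higher and 7 lower, with a median difference of -0.12, and the 5 became 3 under median-of-ratios scaling. Tfcp2l1, a target of LIF and STAT3 that holds the naive state, had 93.7 and 88.4 TPM in LCDM, 202 and 203 TPM in 2iL-F and 201 and 239 TPM in 2iL (-1.15 ± 0.0733, adjusted p = 3.82e-06). Its LCDM libraries lay well below both PD0325901 conditions and above SL, at 18.4 and 18.4 TPM. The secreted protein Spp1 (-1.01 ± 0.0466), Fbxo15 (-0.79 ± 0.0664) and Stat3 (-0.39 ± 0.0549) were lower as well. Gbx2, a homeobox factor downstream of STAT3, was higher, with 52.3 and 54.5 TPM in LCDM and 28.1 and 23.4 TPM in 2iL-F (1.03 ± 0.0768), and the lysosomal enzyme Manba was higher by 1.07 ± 0.107. Klf4 differed by 0.14 ± 0.0457 from 2iL-F, with 573 and 566 TPM in LCDM, 536 and 497 TPM in 2iL-F and 157 and 153 TPM in 2iL, and the difference from 2iL-F did not pass under median-of-ratios scaling or without either LCDM library.

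Genes of primed and formative cells were mostly higher in LCDM, though the group shares Dnmt3b, Dusp6, Etv4 and Etv5 with the lists above. Of 16 tested, 11 were higher and 4 lower, with a median difference of 0.56, and 6 and 3 by at least 1. Outside the shared genes, the keratin Krt18 (1.46 ± 0.105), the Wnt effector Lef1 (2.57 and 2.40 TPM in LCDM and 0.753 and 0.656 TPM in 2iL-F, 1.03 ± 0.0777) and Eomes (1.00 ± 0.0738) were higher. Otx2, a driver of the exit from the naive state, was lower, with 1.91 and 1.88 TPM in LCDM and 6.03 and 5.94 TPM in 2iL-F (-1.27 ± 0.124), and so was N-cadherin, Cdh2 (-1.02 ± 0.0715). The primed marker Fgf5 stayed below 0.1 TPM on average in both, at 0.0176 TPM in LCDM and 0.0349 TPM in 2iL-F, and did not pass the test (-0.02 ± 0.134, adjusted p = 0.894).

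Several of the largest increases belonged to none of these groups. Eras, a Ras protein of embryonic stem cells that is active without a receptor, had 47.3 and 47.9 TPM in LCDM, 4.15 and 4.78 TPM in 2iL-F and 5.70 and 4.36 TPM in 2iL (3.16 ± 0.110). Pdk1, the kinase that restrains pyruvate dehydrogenase, had 57.96 and 55.02 TPM in LCDM, 8.87 and 9.10 TPM in 2iL-F and 7.58 and 8.02 TPM in 2iL (2.52 ± 0.0512). Porcn, which lipidates Wnt ligands for secretion, had 26.6 and 28.2 TPM in LCDM, 2.44 and 1.95 TPM in 2iL-F and 0.672 and 0.577 TPM in 2iL (3.16 ± 0.101). For these 3 genes both PD0325901 conditions were low. The imprinted growth regulator Phlda2 had 116 and 116 TPM in LCDM, 15.1 and 15.97 TPM in 2iL-F and 26.2 and 22.6 TPM in 2iL (2.82 ± 0.0715), and the ligand Bmp4 had 20.8 and 21.3 TPM in LCDM and 3.70 and 2.95 TPM in 2iL-F (2.35 ± 0.142).

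Other large increases were present in 2iL as well and were low in 2iL-F. The tight junction genes Cldn6 and Cldn7 had 41.96 and 42.8 TPM and 40.98 and 38.6 TPM in LCDM, 2.55 and 3.94 TPM and 4.40 and 4.44 TPM in 2iL-F, and 38.5 and 43.05 TPM and 65.8 and 68.00 TPM in 2iL (3.37 ± 0.131 and 2.91 ± 0.0543). Ppm1j, a phosphatase gene, Mapk13, a p38 kinase, and Cotl1, an actin-binding protein, were likewise low in 2iL-F, with differences of 2.60 ± 0.0474, 2.48 ± 0.0883 and 2.47 ± 0.0471 and mean levels in 2iL of 43.2, 33.4 and 183 TPM. For these 5 genes the 2iL-F libraries were the lowest of the 10, but Cotl1 was nearly as low in A2iL, with 31.02 and 28.9 TPM in 2iL-F and 34.02 and 34.4 TPM in A2iL, and Ppm1j was also low in SL, with 8.77 and 8.81 TPM in 2iL-F and 14.8 and 14.5 TPM in SL. The remaining genes of the 20 largest increases were the protease Hpn (3.33 ± 0.0831), Snai3 (2.86 ± 0.128), transferrin, Trf (2.77 ± 0.105), Gnmt (2.64 ± 0.149), Prph (2.59 ± 0.0802), Slc9a5 (2.58 ± 0.0823) and Kif26a (2.55 ± 0.103), at mean levels in LCDM between 7.57 and 14.7 TPM.

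The list of junction genes, which holds Cldn6 and Cldn7, had more members higher than lower in LCDM. Its summed TPM was 711 to 712 in LCDM, 794 to 817 in 2iL-F and 1227 to 1273 in 2iL. Between LCDM and 2iL its median difference was -0.18. Of 21 tested genes of epithelial junctions, 11 were higher and 5 lower, with a median difference of 0.33, and 6 and 2 by at least 1. The tight junction protein Marveld2 (1.35 ± 0.110) and the clathrin adaptor Ap1m2 (1.36 ± 0.0915) were higher. E-cadherin, Cdh1, chosen after its values were seen, was lower, with 226 and 235 TPM in LCDM and 349.9 and 344 TPM in 2iL-F (-0.59 ± 0.0457). The epithelial ETS factor Elf3 had 21.7 and 19.15 TPM in LCDM, 97.5 and 92.4 TPM in 2iL-F and 91.5 and 101 TPM in 2iL (-2.17 ± 0.0707).

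Among the largest decreases in LCDM, levels in 2iL differed. Some genes were high in both PD0325901 conditions. Calcoco2, an autophagy receptor (chr11:96099326-96111964, minus strand), had 15.4 and 12.4 TPM in LCDM, 164 and 167 TPM in 2iL-F and 121 and 125 TPM in 2iL (-3.49 ± 0.0897, adjusted p = 2.42e-08). Ube2l6, the conjugating enzyme for ISG15, had 1.02 and 1.77 TPM in LCDM, 26.3 and 24.8 TPM in 2iL-F and 22.2 and 26.04 TPM in 2iL (-3.49 ± 0.145), and the homeobox gene Gsc had 1.99 and 1.95 TPM in LCDM, 22.1 and 25.6 TPM in 2iL-F and 39.9 and 31.6 TPM in 2iL (-3.06 ± 0.178). All 3 were lower in SL, too, than in either PD0325901 condition. Prss35 (-3.40 ± 0.138), Smtnl1 (-3.25 ± 0.106), AA467197 (-3.38 ± 0.186), the imprinted zinc finger gene Plagl1 (-2.75 ± 0.129) and the decarboxylase Ddc (-1.82 ± 0.0921) were likewise lower in LCDM than in both. So were Spic (-3.14 ± 0.107) and the water channel Aqp3 (21.8 and 20.7 TPM in LCDM, 132 and 141 TPM in 2iL-F and 247 and 254 TPM in 2iL, -2.63 ± 0.0520), both chosen after their values were seen.

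Other genes lower in LCDM were high in 2iL-F and near 0 in 2iL, with LCDM between. Ptx3, a secreted pattern recognition protein, was the largest decrease among the named genes, with 5.55 and 5.07 TPM in LCDM, 135 and 130.4 TPM in 2iL-F and 0 and 0.0614 TPM in 2iL (-4.41 ± 0.0607, adjusted p = 2.90e-09). Serpina3n, a protease inhibitor, had 1.84 and 1.24 TPM in LCDM and 49.3 and 48.5 TPM in 2iL-F and was listed at 0 in both 2iL libraries (-4.31 ± 0.110). The secreted Wisp2 (-3.27 ± 0.140), listed at 0 in both 2iL libraries, was also among the 20 largest decreases. Of the 512 nameable genes lower by at least 1, 150 (29.3%) correlated with the mean of the fibroblast matrix genes over the 10 libraries at r above 0.9, and of the 288 higher by at least 1, 0 did. Among all 14578 tested genes, 640 did. The matrix genes that make up the mean were not left out, and 31 of the 37 were among the genes lower by at least 1. The mean was lower in LCDM than in 2iL-F, so genes higher in LCDM could hardly reach this r. These counts describe libraries that share their fibroblast content, and its part in the result was not tested.

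**Figure D4:**
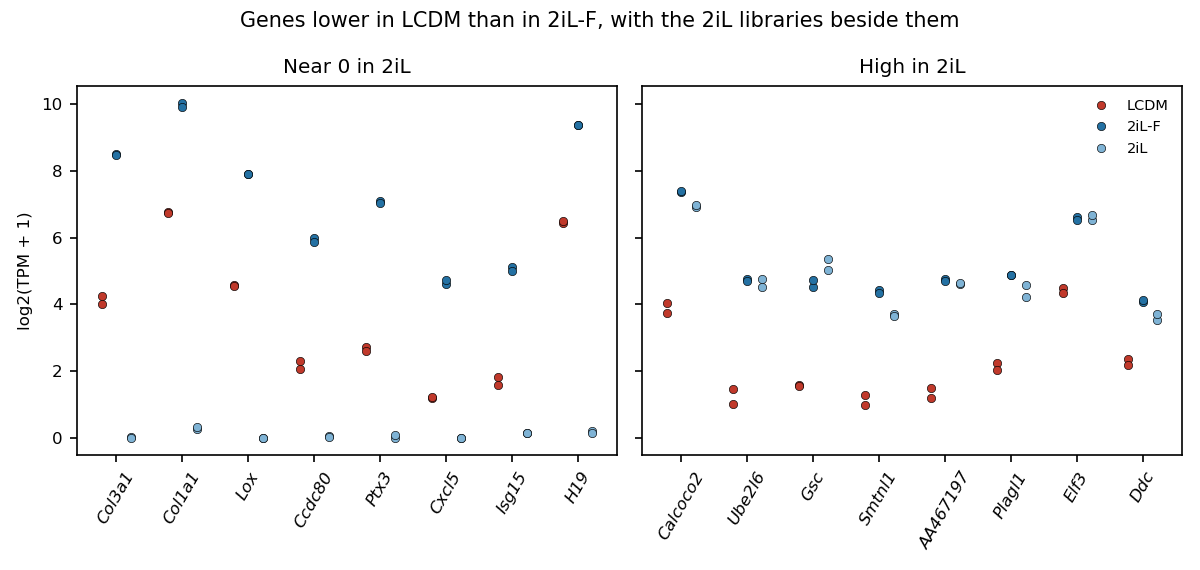
Level, log2(TPM + 1) (y axis), of 16 genes lower in LCDM than in 2iL-F, in both libraries (points) of LCDM, 2iL-F and 2iL; panels are by level in 2iL. Left, Col3a1 to H19 lie near 0 in 2iL with LCDM between; right, Calcoco2 to Ddc are lower in LCDM than in both conditions with PD0325901.

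Matrix genes of fibroblasts made the largest group among the decreases. Of 37 tested, 35 were lower in LCDM, 31 of them by at least 1, and 1 was higher, with a median difference of -2.14. The fibrillar collagen Col3a1 had 17.9 and 15.1 TPM in LCDM and 361 and 356 TPM in 2iL-F (-4.37 ± 0.0741, adjusted p = 5.39e-09), and Col1a1 (chr11:94936224-94953042, plus strand) was lower by 9.53-fold in mean TPM (-3.24 ± 0.0613). Lox, which cross-links collagen, had 23.1 and 22.6 TPM in LCDM and 239 and 239.8 TPM in 2iL-F (-3.33 ± 0.0434). The libraries of these genes did not overlap between LCDM and 2iL-F, which the rule for the 20 largest decreases required. Ccdc80 (-3.75 ± 0.0900), Col5a2 (-3.58 ± 0.0636), Timp3 (-3.48 ± 0.0746), Loxl2 (-3.34 ± 0.0581), fibrillin Fbn1 (-3.33 ± 0.0513) and Col5a1 (-3.16 ± 0.0666) were also among the 20 largest decreases.

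The size of the decrease was not even over the fibroblast genes. Fibronectin, Fn1, was well above 0 in 2iL and had 283 and 280.2 TPM in LCDM, 641 and 611 TPM in 2iL-F and 386 and 420.1 TPM in 2iL (-1.15 ± 0.0533). Bgn, a proteoglycan listed at 0 in both 2iL libraries, differed by -0.92 ± 0.0582, against -3.33 for Lox, which was also listed at 0 in 2iL. Of 23 tested genes of fibroblast identity, 20 were lower, 15 of them by at least 1, and 1 was higher, with a median of -1.14. The surface protein Thy1 had 20.1 and 20.01 TPM in LCDM and 70.9 and 68.4 TPM in 2iL-F (-1.75 ± 0.0559), and the mesenchymal factors Prrx1 (-1.61 ± 0.0851), Twist1 (-1.14 ± 0.102) and Snai2 (-1.64 ± 0.167) were lower. Pdgfra, a receptor of mesenchymal cells, did not pass the test, with 2.11 and 1.81 TPM in LCDM and 1.59 and 1.60 TPM in 2iL-F (0.19 ± 0.101, adjusted p = 0.139), and Nt5e was higher (0.71 ± 0.104).

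Interferon response genes were lower in LCDM nearly throughout. Of 29 tested, 27 were lower, 17 of them by at least 1, and 1 was higher, with a median difference of -1.38. The summed TPM of the list was 525 to 546 in LCDM, 1662 to 1699 in 2iL-F and 833 to 938 in 2iL, and 8 of its genes were listed at 0 in both 2iL libraries. Isg15, a ubiquitin-like protein (chr4:156199424-156200818, minus strand), had 2.57 and 1.98 TPM in LCDM, 33.9 and 30.8 TPM in 2iL-F and 0.116 and 0.109 TPM in 2iL (-3.35 ± 0.0965, adjusted p = 4.20e-08). Ifit1, which binds foreign RNA, had 0.696 and 0.598 TPM in LCDM, 5.89 and 6.15 TPM in 2iL-F and 0.0660 and 0 TPM in 2iL (-2.09 ± 0.0871). Irf7, the factor that amplifies the response, had 1.29 and 1.43 TPM in LCDM and 8.69 and 8.30 TPM in 2iL-F (-2.01 ± 0.0802) and was chosen after its values were seen. The fibroblast matrix genes moved with the group, and their part in it was not tested. Ifitm1, a membrane protein that blocks viral entry, was also high in 2iL, with 39.9 and 44.5 TPM in LCDM, 221 and 212 TPM in 2iL-F and 158 and 164 TPM in 2iL (-2.34 ± 0.0771).

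The interferon-stimulated response element, a short promoter motif of interferon-induced genes, was looked for on both strands as GAAA, any 2 bases, then GAAA. It was in the promoter windows of 10 of the 20 tested members with a window, against 3.99% of 27025 genes, and the windows of Isg15 and Ifit1 show it in capitals, from the same RefSeq table (GRCm38.p6).
Isg15, chr4:156200769-156201068, minus strand: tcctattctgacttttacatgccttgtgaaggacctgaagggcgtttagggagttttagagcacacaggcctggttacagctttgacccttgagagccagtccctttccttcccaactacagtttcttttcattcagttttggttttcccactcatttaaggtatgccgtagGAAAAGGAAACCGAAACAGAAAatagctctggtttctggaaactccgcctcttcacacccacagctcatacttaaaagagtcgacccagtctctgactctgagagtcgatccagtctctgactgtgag
Ifit1, chr19:34640639-34640938, plus strand: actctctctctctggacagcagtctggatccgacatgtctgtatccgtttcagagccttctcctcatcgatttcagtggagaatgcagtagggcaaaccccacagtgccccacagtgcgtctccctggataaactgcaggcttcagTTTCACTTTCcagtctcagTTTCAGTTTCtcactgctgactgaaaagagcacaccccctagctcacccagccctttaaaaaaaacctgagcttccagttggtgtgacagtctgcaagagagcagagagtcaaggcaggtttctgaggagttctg
Isg15 holds 3 overlapping matches and Ifit1 holds 2 on the other strand. Of 6 other searches on these lists, the CArG box, which the factor SRF binds, was in 3 of 19 windows of contractile genes and in 1 of 13 of immediate early genes, against 1.81% of all genes. The AP-1 motif TGANTCA was in 0 of 13 windows of immediate early, 1 of 13 of ERK feedback and 1 of 23 of collagen and matrix genes, against 8.97%, and CTTTGAT, bound by TCF and LEF factors, in 0 of 16 of Wnt targets, against 4.29%. A match is a feature of the sequence and not a measured binding site.

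Secreted inflammatory genes went the same way as the fibroblast genes. Of 19 tested acute-phase and chemokine genes, 18 were lower, 11 of them by at least 1, and 0 were higher, with a median of -1.17. The chemokine Ccl2 had 20.9 and 21.8 TPM in LCDM and 119 and 118 TPM in 2iL-F and was listed at 0 in both 2iL libraries (-2.41 ± 0.0457). Cxcl5 (-3.46 ± 0.0737), Cxcl1 (-2.57 ± 0.0620), Il6 (-2.43 ± 0.129) and, outside the list, Ccl8 (-3.39 ± 0.204) were lower as well. Ptgs2, the prostaglandin synthase, did not pass the test, with 14.4 and 13.2 TPM in LCDM and 14.5 and 16.4 TPM in 2iL-F (-0.15 ± 0.0691, adjusted p = 0.0894), although it was near 0 in 2iL, at 0.0766 and 0.0540 TPM. It was chosen after its values were seen.

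Imprinted genes, expressed from one parental copy, moved both ways. Of 17 tested, 6 were higher and 9 lower, 2 and 7 of them by at least 1, and the 6 became 3 under median-of-ratios scaling and without either LCDM library. The noncoding RNA H19 (chr7:142575529-142578143, minus strand) had 86.00 and 89.01 TPM in LCDM, 672 and 666 TPM in 2iL-F and 0.143 and 0.1005 TPM in 2iL (-2.92 ± 0.0512, adjusted p = 5.39e-09), and the proteoglycan Dcn had 5.78 and 6.11 TPM in LCDM and 32.9 and 34.3 TPM in 2iL-F with 0 in both 2iL libraries (-2.32 ± 0.0621). Peg3, a zinc finger gene, had 4.88 and 4.60 TPM in LCDM, 15.6 and 14.9 TPM in 2iL-F and 25.4 and 29.02 TPM in 2iL (-1.50 ± 0.0785). Among LCDM, 2iL-F and 2iL, H19 and Dcn thus had the order of Col1a1, and Peg3, like Plagl1, did not. The other libraries did not keep that order. H19 had 82.4 and 75.9 TPM in SL, not above LCDM, and Dcn had 110 and 105 TPM in A2iL, above 2iL-F. Dcn is also itself a member of the matrix list. The amino acid transporter Slc38a4 was higher, with 123 and 116 TPM in LCDM, 43.8 and 43.3 TPM in 2iL-F and 103 and 115 TPM in 2iL (1.43 ± 0.0618). The noncoding RNA Meg3 differed by 0.17 ± 0.0608, a call lost without any one of the 4 libraries.

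Targets of p53 were mostly lower in LCDM. Of 28 tested, 16 were lower and 6 higher, with a median difference of -0.27. Cdkn1a, the cyclin-dependent kinase inhibitor p21 (chr17:29090976-29100727, plus strand), had 167 and 179 TPM in LCDM, 582 and 583 TPM in 2iL-F and 465 and 401 TPM in 2iL (-1.75 ± 0.0672, adjusted p = 2.10e-07). In A2iL it had 518 and 529 TPM and in SL 484 and 489 TPM, so the LCDM libraries were the lowest of all 10. The death receptor Fas (-1.60 ± 0.0961) and the autophagy gene Dram1 (-1.87 ± 0.124) were lower too but near 0 in 2iL, at 0.0487 and 0.137 TPM and 0.0576 and 0.108 TPM, and Btg2, an antiproliferative gene, differed by -1.13 ± 0.0650. Plk3, a stress kinase, was higher (1.03 ± 0.0520). The fibroblast matrix genes moved with some of these decreases, at r = 0.97 for Fas and 0.91 for Dram1 over the 10 libraries, against 0.37 for Cdkn1a, and their part was not tested.

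Genes of the cell cycle were slightly and broadly higher in LCDM. Of 47 tested genes of the mitotic spindle and chromosome segregation, 36 were higher and 1 lower, with a median difference of 0.38, and 33 and 3 under median-of-ratios scaling. Securin, Pttg1, which holds back the separase, had 78.9 and 82.4 TPM in LCDM, 29.6 and 29.6 TPM in 2iL-F and 40.3 and 37.3 TPM in 2iL (1.42 ± 0.0502, adjusted p = 1.37e-07), the only member of the list to differ by 1 or more. Cenpk of the kinetochore (0.68 ± 0.0924), Mad2l2 (0.65 ± 0.0593) and cyclin B2, Ccnb2 (0.60 ± 0.0433), were higher by less. Of 53 tested DNA replication genes 29 were higher and 3 lower (median 0.23), led by cyclin E1, Ccne1, with 159 and 157 TPM in LCDM and 78.9 and 74.7 TPM in 2iL-F (1.03 ± 0.0527), and by the factor E2f2 (1.00 ± 0.0681). Most other members of these lists differed by less than 1. The fibroblast matrix genes moved the opposite way, at r = -0.83 for Ccnb2, -0.84 for Mad2l2 and -0.42 for Pttg1 over the 10 libraries, and their part was not tested. Between LCDM and 2iL, which was poor in fibroblast transcript, the median difference was 0.18 for the mitotic list and 0.14 for the replication list, and it was -0.01 for Ccnb2, -0.30 for Mad2l2 and 1.04 for Pttg1.

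Repair genes had the same lean. Of 40 tested double-strand break repair genes 22 were higher and 0 lower (median 0.33), and 21 and 3 under median-of-ratios scaling, while 18 did not pass. Fance of the Fanconi anaemia core (0.88 ± 0.0636), Rad50 (0.84 ± 0.0834), the Ku subunit Xrcc6 (0.83 ± 0.0666) and Parp1 were the largest. Of 36 excision and mismatch repair genes 19 were higher and 4 lower (median 0.16), led by the TFIIH subunit Gtf2h4 (0.93 ± 0.0563). Parp1, which marks DNA breaks with poly(ADP-ribose), had 338 and 345 TPM in LCDM, 209.8 and 212 TPM in 2iL-F and 258 and 266 TPM in 2iL (0.69 ± 0.0374, adjusted p = 1.34e-06). Over the 10 libraries, the median r with the fibroblast matrix mean was -0.53 for double-strand break repair and -0.22 for excision and mismatch repair. It was -0.80 for Fance and -0.45 for Parp1, and the part of the matrix genes was not tested. Between LCDM and 2iL the median difference was 0.10 for double-strand break repair and 0.05 for excision and mismatch repair, close to 0.05 for all nameable genes, with 0.16 for Fance and 0.38 for Parp1.

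The PARP family as a whole divided, with 6 of 12 higher and 5 lower. Beside Parp1, Parp2 (0.67 ± 0.0725), Parp16 (0.74 ± 0.0964) and Tiparp (0.68 ± 0.0992) were higher. Parp3 (-1.37 ± 0.0781) and the interferon-induced Parp9 (-1.36 ± 0.131) and Parp14 (-0.61 ± 0.118) were lower. Parp3 had 3.57 and 3.56 TPM in LCDM, 10.5 and 11.1 TPM in 2iL-F and 2.63 and 2.36 TPM in 2iL. Of 12 genes of histamine and muscarinic signalling, 5 had a trusted symbol and none of the 5 reached 1 TPM in 2 libraries, so none was tested.

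Mitochondrial ribosome and translation genes were higher in 32 of 42 cases and lower in 4, with a median of 0.31. The counts were 25 and 4 under median-of-ratios scaling. The largest was Mrpl28, with 162 and 149 TPM in LCDM and 91.3 and 88.7 TPM in 2iL-F (0.78 ± 0.0667). Oxidative phosphorylation subunits were near level, 19 of 45 higher and 4 lower with a median of 0.14, led by Uqcrc1 of complex III (0.54 ± 0.0513). Among 19 glycolysis genes, 4 were higher and 8 lower, and apart from Pdk1 no member differed by 1 or more; the phosphofructokinase Pfkp was lower (-0.93 ± 0.0493) and its muscle form Pfkm higher (0.75 ± 0.0553).

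Lysosomal genes were lower in LCDM. Of 47 tested, 35 were lower, 7 of them by at least 1, and 3 higher, with a median difference of -0.54. Cathepsin D, Ctsd, had 234 and 237 TPM in LCDM, 553 and 563 TPM in 2iL-F and 238 and 267 TPM in 2iL (-1.24 ± 0.0565), and the collagen-degrading Ctsk 12.1 and 11.4 TPM in LCDM, 62.7 and 62.6 TPM in 2iL-F and 0.116 and 0.109 TPM in 2iL (-2.32 ± 0.0522). The membrane protein Lamp2 lay closer in 2iL to 2iL-F than to LCDM, with 17.1 and 15.8 TPM in LCDM, 38.7 and 39.8 TPM in 2iL-F and 30.5 and 36.4 TPM in 2iL (-1.21 ± 0.0812). Members thus differed in whether 2iL lay nearer to LCDM or to 2iL-F. Over the 10 libraries the median r with the fibroblast matrix mean was 0.22 for this group, and the part of the matrix genes was not tested. Between LCDM and 2iL the group's median difference was -0.36.

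Redox and detoxification genes were lower in 21 of 37 cases and higher in 11, with a median of -0.26. The folate enzyme Aldh1l1 had 11.8 and 11.4 TPM in LCDM, 27.3 and 28.6 TPM in 2iL-F and 70.2 and 75.1 TPM in 2iL (-1.20 ± 0.0927), and the plasma peroxidase Gpx3 (-1.93 ± 0.0723) and the transferase Gsto1 (-1.61 ± 0.0528) were lower. The fibroblast matrix genes moved with Gpx3 at r = 0.98, with Gsto1 at 0.68 and with Aldh1l1 at -0.60 over the 10 libraries, and their part was not tested. Gpx3 had 18.8 and 17.2 TPM in LCDM, 74.8 and 68.5 TPM in 2iL-F and 7.11 and 7.54 TPM in 2iL. Of 39 tested targets of ATF4, the factor of the amino acid response, 13 were higher and 15 lower, with a median of 0.01. Its stress effector Ddit3 (-1.05 ± 0.0898) and Cth of cysteine synthesis (-1.03 ± 0.0756) were lower by at least 1. Of 38 chaperone genes 16 were higher and 15 lower. The largest decreases were Pdia4 (-0.83 ± 0.0647) and P4hb (-0.73 ± 0.0588), of the endoplasmic reticulum, and the transcription factor Xbp1 (-0.65 ± 0.0620).

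Wnt, LIF and BMP pathway genes were split, with 10 of 24, 8 of 20 and 8 of 24 tested members higher and 8, 9 and 8 lower. Axin2, a direct target of beta-catenin, was lower, with 13.6 and 14.4 TPM in LCDM, 24.4 and 23.2 TPM in 2iL-F and 13.5 and 12.3 TPM in 2iL (-0.73 ± 0.0616). In the LIF group, receptor subunits Osmr (-1.66 ± 0.0725) and Il6ra (-1.26 ± 0.0874) were lower. Osmr was near 0 in 2iL, at 0.00724 and 0 TPM. The fibroblast matrix genes moved with Osmr at r = 0.98 and with Il6ra at 0.32 over the 10 libraries, and their part was not tested. For TGF-beta and BMP, the receptor Tgfbr2 had 4.16 and 4.02 TPM in LCDM, 35.3 and 31.9 TPM in 2iL-F and 1.84 and 1.48 TPM in 2iL (-2.77 ± 0.0859), and Id4 was lower (-1.96 ± 0.0895). Bmp4, described above, was the largest increase in both the Wnt and the BMP lists.

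**Figure D5:**
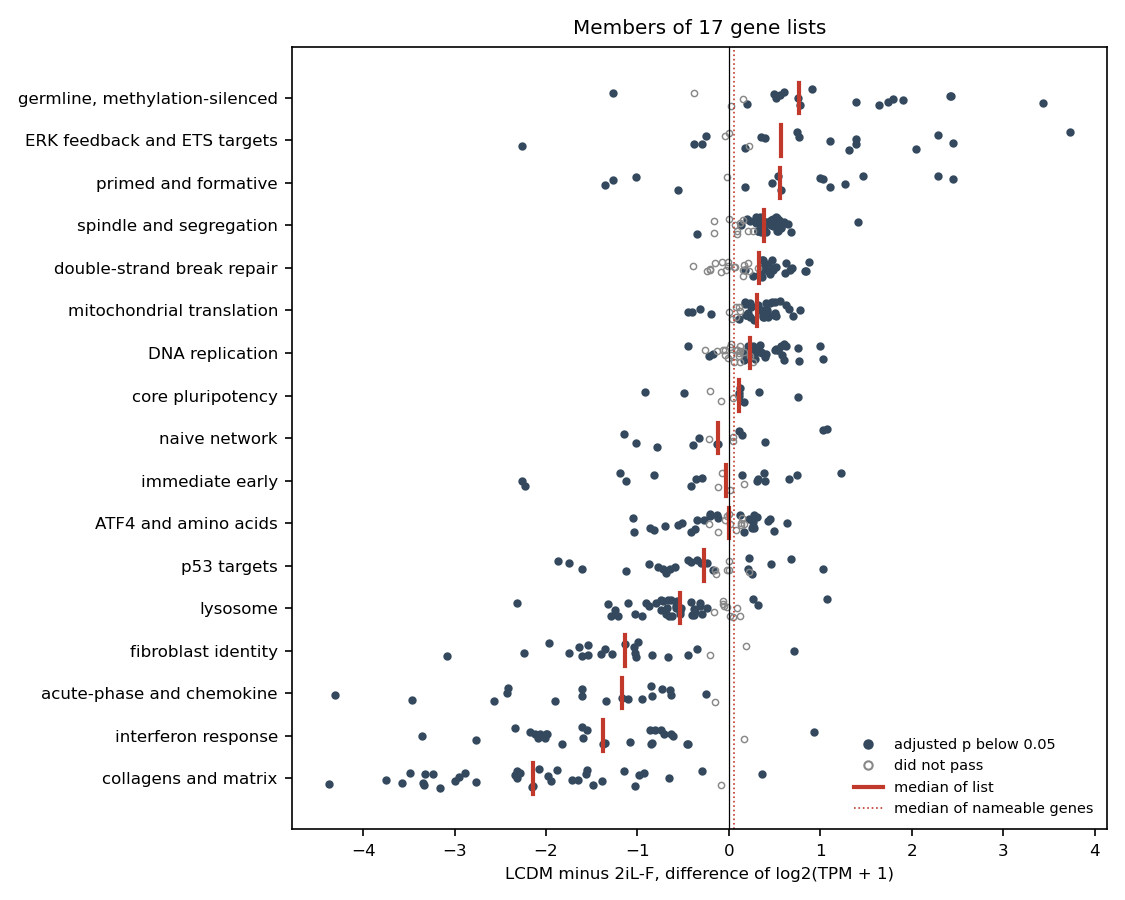
Difference of each tested member (points) of 17 gene lists (x axis, log2(TPM + 1), LCDM minus 2iL-F), with the list's median (thick line) and the median of all nameable genes (dotted line); filled points passed the test. Germline and ERK feedback lists lie furthest to the right, with medians of 0.77 and 0.57, and the collagen and matrix list furthest to the left at -2.14.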

How the data were processed

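RNA was measured by RNA-seq in 10 libraries of 5 culture conditions, 2 per condition. Per the submitters' processing notes, reads were processed with Bowtie2, RSEM, DESeq2 and R 3.4.2 on the genome build mm10; what each tool did, and the other versions, are not stated there. The authors deposited TPM values in 1 table of 20494 lines, and these keep no depth, so no counting interval is given. TPM are shares of a library, so a large change in abundant transcripts moves all others. Symbols were used in the first 9865 lines. Of members of broadly expressed gene families there, 98.9% of 179 had at least 5 TPM, against 49.2% of 63 in the lines below, where symbols and values are shifted against each other. Lines below that limit entered the fit and the counts without a name.

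The comparison used limma 3.58.1 (lmFit, then eBayes with trend, under R 4.3.3) on log2(TPM + 1), with a mean per condition over all 10 libraries, 5 residual degrees of freedom and no covariate, and the contrast LCDM minus 2iL-F. Genes with 1 TPM in at least 2 libraries were tested, 14578 in all, and two-sided p-values were adjusted over all of them by Benjamini-Hochberg at 0.05. Named genes are the 20 largest increases and decreases that passed, differed by at least 1, reached 5 TPM and did not overlap between groups, up to 6 passing members per list and any tested member of 13 lists. Predicted, clone, small RNA, ribosomal, histone and pseudogene names were skipped, and 1 gene that met the rule is not reported here. The comparison, the members and the lists were chosen with earlier results of these data known. LCDM against 2iL is given here by levels, differences and list medians, without counts of changed genes. Gene coordinates are from GENCODE vM21 (mm10) and promoters from RefSeq (GRCm38.p6), with windows for 27025 genes.

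On simulated data for LCDM against 2iL-F with 200 of 14578 genes changed, 61.2% of changes of 0.5 in log2 units were recovered, 88.8% of those of 1, 95.6% of those of 2 and 99.2% of those of 3, and 3.56% of the calls were false. In the data 59.5% of genes were called, far more than were changed in the simulation, so these rates do not carry over. Its noise was independent between libraries, so it cannot speak to replicates that may be technical. Alternatives were another pseudocount, filter and scaling, the 4 libraries alone, robust eBayes, a replicate block, each library left out, the fit without 2iL, the nameable lines alone, and the removal of 640 genes that follow the fibroblast matrix genes. Figures were made with matplotlib 3.10.9.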

Additional observations from a re-analysis of the deposited data

How the results depend on the processing

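Beside the 8674 changed genes, separate fits counted 7094 to 9246 under another filter, pseudocount, scaling or variance estimate, with the 4 libraries alone, and without the 2iL libraries. Leaving out 1 of the 4 libraries gave 7167 to 7312, and 1568 to 1608 of at least 1 on the log2 scale. The count of at least 1 became 2450 with a pseudocount of 0.1, which enlarges differences of low genes by construction. The 7962 nameable genes alone, a smaller table, gave 5215 changed and 800 of at least 1. Without the 640 genes that follow the fibroblast matrix genes, 8063 changed, 4677 higher and 3386 lower in LCDM.

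The replicate numbers 3 and 5 are not explained in the labels. The deviations of same-numbered LCDM and 2iL-F libraries correlated at r = -0.0738 (-0.131 to 0.0746 over all pairs of conditions). These low values show no strong common shift, but they cannot tell whether same-numbered libraries shared a culture or batch. A replicate block gave 8452 changed genes and 1577 of at least 1.

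Of 169 named genes that passed the test, none changed direction under the alternatives run, and 8 lost their call under at least 1: Dnmt1, Etv5, Klf4, Lif, Meg3 and Pou5f1, with differences under 0.3 in size, and Gata3 and Gata4, with differences of -0.45 and 0.43. The cause was not tested. TPM keep no depth, so what read number would limit is unknown.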

Other observations

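Trophoblast and primitive endoderm genes split in direction. The trophoblast list summed to 231 to 247 TPM in LCDM and 234 to 249.2 TPM in 2iL-F, and the primitive endoderm list, which holds matrix genes such as Sparc, to 1572 to 1651 TPM in LCDM and 2976 to 3105 TPM in 2iL-F. Of 19 tested trophoblast genes, 7 were higher and 9 lower in LCDM, and of 21 primitive endoderm genes, 7 were higher and 10 lower. Eomes, a trophoblast and mesendoderm factor, had 8.21 and 8.77 TPM in LCDM and 3.57 and 3.93 TPM in 2iL-F, while Cdx2 and Gata3, which specify trophoblast, had means of 0.143 and 0.221 TPM in LCDM, against 0.683 and 0.679 TPM in 2iL-F. The endoderm factors Gata4, Gata6 and Sox17 were, like Gata3, chosen after their values were seen. Their means were 3.64, 4.68 and 1.75 TPM in LCDM, against 2.45, 2.67 and 0.526 TPM in 2iL-F. The primitive endoderm list had a median difference of -0.20, so these 3 factors do not stand for it. The calls of Gata3 and Gata4 were lost under at least 1 alternative.

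Among 23 tested lineage transcription factors, 13 were lower in LCDM and 3 higher, and Gsc led them. Hox genes of the C and D clusters were among the lower ones: Hoxc6 had 1.94 and 1.54 TPM in LCDM, 5.98 and 6.75 TPM in 2iL-F and 0.400 and 0.753 TPM in 2iL (-1.43 ± 0.128), and Hoxc9 (-1.45 ± 0.152) and Hoxd8 (-1.35 ± 0.157) were lower by at least 1. Over the 10 libraries the median r of this list with the fibroblast matrix mean was 0.47, and the part of the matrix genes was not tested. Between LCDM and 2iL the median difference of the list was 0.08. Of 19 genes that silence retroelements, 11 were higher and 1 lower, with a median of 0.19, and the counts were 8 and 3 under median-of-ratios scaling. Of 48 chromatin regulators, 19 were higher and 11 lower, against 16 and 17 under that scaling, so no direction is given. The Polycomb accessory protein Phf19 was the largest increase there (4.61 and 5.78 TPM in LCDM and 1.60 and 1.35 TPM in 2iL-F, 1.32 ± 0.118). In 4 genes of blood, endothelium and epidermis, all lower, Cd3e, a T cell receptor chain, had 0.763 and 0.887 TPM in LCDM, 4.91 and 4.97 TPM in 2iL-F and 2.08 and 2.10 TPM in 2iL (-1.70 ± 0.0976).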
